A study of Homo sapiens with 8 samples.

Results

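ATP-binding cassette (ABC) transporters were examined in LN229, an established human glioblastoma cell line, after 48 h with bortezomib at 7.5 nM plus panobinostat at 15 nM, called the combination here, or with DMSO. Bortezomib blocks the proteasome and panobinostat blocks histone deacetylases. There were 4 samples in each group. The controls are labelled untreated in 1 field and DMSO in others, and the labels do not say whether each sample was its own culture. The p-values therefore rest on a spread between samples that may be technical. The family was taken as every gene whose symbol is ABC, a letter from A to G and a number. This gave 46 of 58735 genes in the deposited table, and 45 after 1 annotated pseudogene (ABCC13) was left out. The symbols miss relatives named otherwise, such as TAP1, TAP2 and CFTR.

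ABC proteins couple ATP hydrolysis to work across or near membranes. Members of the A and G groups mostly move lipids and sterols, those of the B group include P-glycoprotein and carriers of mitochondria and lysosomes, those of the C group export organic anions and drug conjugates, and those of the D group bring fatty acids into peroxisomes. The E and F members have no membrane segment and serve translation. ABCB1 (P-glycoprotein), ABCC1 (MRP1) and ABCG2 (BCRP) pump a wide range of drugs out of cells, and ABCB1 and ABCG2 are best known in the brain from the capillary wall, where they limit drug entry.

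Levels are the deposited FPKM values, scaled for the length of the gene and the size of the library, and are given as mean ± SD over 4 samples or as each sample's value in the order of replicates 1 to 4. Fold changes are fitted differences of log2(FPKM + 1), combination minus DMSO, from limma over all genes that averaged 1 FPKM or more across the 8 samples. Calls use p adjusted by Benjamini-Hochberg over all those genes, with a threshold of 0.05. Adding 1 FPKM makes the fitted change of a weakly expressed gene smaller than its ratio of FPKM. FPKM is relative to each library, so fewer cells of a type and less RNA per cell cannot be told apart. Libraries held 15189251 to 17324292 reads assigned to genes. Mitochondrial genes took 11.7% to 15.1% of the reads after the combination and 4.31% to 6.69% in DMSO (two-sided exact permutation test of 4 against 4 samples, p = 0.0286, the smallest possible). Scaled to nuclear reads alone, 12 of the 23 tested members were higher and 5 lower, against 40% and 38.2% of all genes. Of 8 markers of glioma or mesenchymal cells, VIM, CD44, NES, SOX2 and S100B averaged over 5 FPKM in both groups. The list summed to 247 to 261 FPKM after the combination and 852 to 879.7 FPKM in DMSO. VIM, NES, SOX2, GFAP and S100B averaged lower after the combination. The other 3 averaged higher, namely CD44 (54.8 FPKM against 53.1 in DMSO), OLIG2 (3.50 FPKM against 2.34 in DMSO) and CHI3L1 (0.0365 FPKM against 0 in DMSO). GFAP, the classical astrocyte marker, stayed at or below 0.223 FPKM in every sample. Markers of other cell types were mostly higher after the combination. The 5 immune markers summed to 0.567 to 1.12 FPKM after the combination and 0.135 to 0.481 FPKM in DMSO, with AIF1 at 0 in every sample, and the 4 endothelial ones to 0.922 to 1.30 FPKM after the combination and 0.266 to 0.463 FPKM in DMSO, with CDH5 at 0 in DMSO. The 3 epithelial markers summed to 20.5 to 24.8 FPKM after the combination and 12.02 to 12.8 FPKM in DMSO, nearly all of it KRT18, and the 4 neuronal ones to 15.8 to 16.5 FPKM after the combination and 9.91 to 11.2 FPKM in DMSO. The part of these markers in the results was not tested.

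Across the family the direction was mixed. Of 45 members, 23 reached a mean of 1 FPKM and were tested, and 11 of these were higher and 6 lower after the combination. With library totals as the scale 8 were higher and 7 lower, against 33.4% and 44.3% of all genes. Among all 13296 genes tested, 36.9% were higher and 41.0% were lower, so the 17 called members of 23 lie close to the 77.8% called among all genes. Of the called members ABCB10 alone fell by at least 2-fold in this fit, where 11.1% of all genes did, and no member rose by as much, where 8.84% did. That count depends on the scale: ABCA7 rose by at least 2-fold with upper-quartile or quantile scaling, ABCA7 and ABCG1 with a pseudocount of 0.1, and ABCA7, ABCG1 and ABCG2 with voom. ABCA1, ABCG1 and ABCG2 passed the filter only through the combination samples, since their DMSO means lay under 1 FPKM, and had to stand higher for that reason. Without the filter all 45 members could be fitted, and 19 were higher and 8 lower, against 20% and 16.5% of all 38736 genes with a read (36.5% in all). With a filter of 0.1 FPKM 15 members were higher and 9 lower of 34, against 30.2% and 27.1% of 24144 genes (57.4% in all). With voom of limma on the recovered reads 10 members were higher and 6 lower of 23, against 35.3% and 43.2% of all genes (78.5% in all). Without the filter voom found that 19 were higher and 10 lower of 45, against 22.4% and 18.2%. The samples of the 2 groups did not overlap for 28 members, 19 of them higher and 9 lower, against 31.3% and 29.6% of the 18174 protein-coding genes with a read. The median log2 fold change was 0.06 over the 23 tested members and -0.03 over all genes tested.

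**Figure D1:**
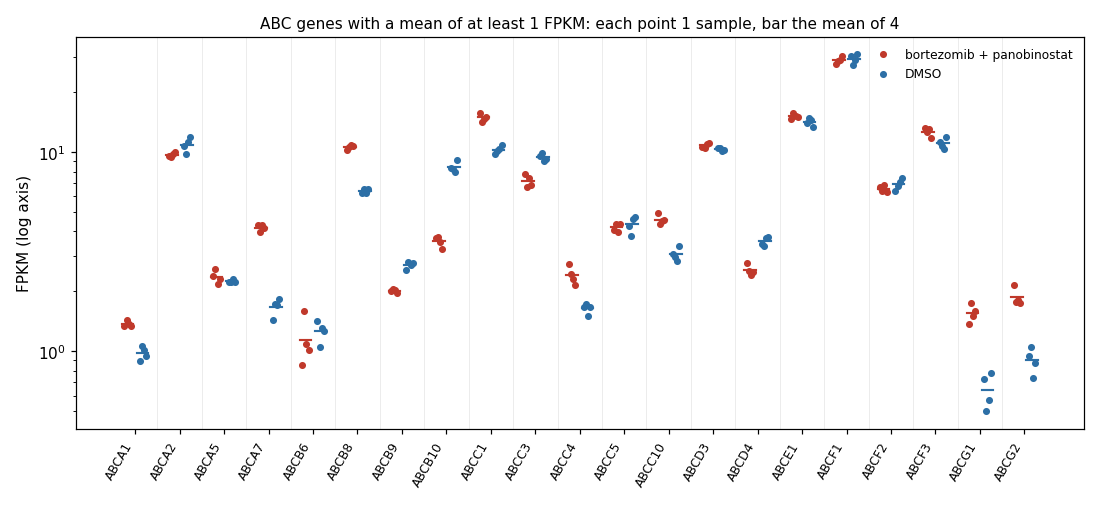
FPKM on a log axis for 21 of the ABC genes averaging 1 FPKM or more, 1 point per sample and a bar at the mean of 4 samples, with the bortezomib plus panobinostat samples in red left of the DMSO samples in blue. The groups stand apart with the combination higher for ABCA1, ABCA7, ABCB8, ABCC1, ABCC4, ABCC10, ABCG1 and ABCG2, and very narrowly for ABCD3. They stand apart with the combination lower for ABCB9, ABCB10, ABCC3 and ABCD4, while ABCF1 near 29 FPKM overlaps.

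All 3 classical drug efflux pumps were higher after the combination. ABCB1, on chromosome 7 (positions 87503633 to 87713323) of GRCh38, had 1.37, 1.249, 1.51 and 1.13 FPKM in the 4 combination samples, against 0.327, 0.496, 0.361 and 0.502 FPKM in DMSO. Every combination sample lay above every DMSO sample, with 105 to 137 reads in each combination sample and 33 to 46 in each DMSO sample. The ratio of mean FPKM was 3.12. Its mean over all 8 samples lay under the filter, and in the fit without the filter its log2 fold change was 0.70 with an SE of 0.0883 (adjusted p = 0.00026). It held in every alternative scaling, pseudocount and omission of 1 sample tried without the filter. ABCG2, on chromosome 4 (positions 88090264 to 88231322), had 2.15, 1.77, 1.82 and 1.74 FPKM in the 4 combination samples, against 0.946, 1.06, 0.736 and 0.879 FPKM in DMSO. The groups did not overlap, and the log2 fold change was 0.59 with an SE of 0.0799 (adjusted p = 9.01e-05), for a ratio of FPKM of 2.07. As ABCG2 passed the filter only through the combination samples, its direction in that fit was fixed. In the fit without the filter its log2 fold change was 0.59 with an SE of 0.0784 (adjusted p = 0.000358). ABCC1, on chromosome 16 (positions 15949577 to 16143074), was the most abundant of the 3 pumps per length, with 15.7, 14.3, 14.7 and 15.1 FPKM in the 4 combination samples, against 9.85, 10.2, 10.4 and 10.8 FPKM in DMSO. It rose by a log2 fold change of 0.50 with an SE of 0.0407 (adjusted p = 2.54e-06), again without overlap. Per length, ABCC1 ranked 3 of the 45 members after the combination and 7 in DMSO.

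The sequence before the starts of ABCB1 and ABCG2 is shown because RNA of both pumps was higher after the combination. Each line gives the 250 bases before a RefSeq start (GRCh38.p14), 5′ to 3′ on the strand of the gene, with GC boxes (GGGCGG or its complement CCGCCC) and CCAAT boxes (CCAAT or its complement ATTGG) in capitals. ABCB1 has a distal and a proximal start in the table, and the proximal one is given second.
ABCB1, chr7:87713296-87713545, minus strand: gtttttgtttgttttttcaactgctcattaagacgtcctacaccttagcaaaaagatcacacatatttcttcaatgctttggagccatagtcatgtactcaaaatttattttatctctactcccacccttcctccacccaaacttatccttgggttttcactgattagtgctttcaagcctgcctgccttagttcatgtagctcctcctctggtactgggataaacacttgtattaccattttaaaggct
ABCB1, chr7:87600885-87601134, minus strand: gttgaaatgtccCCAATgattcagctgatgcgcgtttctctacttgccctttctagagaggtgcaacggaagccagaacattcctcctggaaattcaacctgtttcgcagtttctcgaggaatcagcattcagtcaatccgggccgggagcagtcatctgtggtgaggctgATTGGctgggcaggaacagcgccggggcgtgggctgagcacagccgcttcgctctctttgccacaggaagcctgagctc
ABCG2, chr4:88158910-88159159, minus strand: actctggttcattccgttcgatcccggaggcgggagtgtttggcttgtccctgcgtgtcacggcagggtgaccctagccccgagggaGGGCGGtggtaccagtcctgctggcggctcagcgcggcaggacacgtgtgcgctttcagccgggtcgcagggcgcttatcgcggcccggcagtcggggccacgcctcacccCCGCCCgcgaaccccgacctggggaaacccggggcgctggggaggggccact
The proximal ABCB1 window held 2 CCAAT boxes, 1 in each orientation, and neither ABCB1 window held a GC box. The ABCG2 window shown, 1 of 5 in the table, held 2 GC boxes and no CCAAT box. An overlapping window also held 2 GC boxes, the other 3 held none, and no ABCG2 window held a CCAAT box. CCAAT boxes occurred in 32.0% of all 35116 windows of this length and GC boxes in 42.6%. Gene-level FPKM do not say which start the transcripts came from.

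Among the other C members, the organic anion and conjugate exporters, 2 tested genes rose and 1 fell. ABCC4 (MRP4), an exporter of cyclic nucleotides and prostaglandins, had 2.42 ± 0.253 FPKM after the combination and 1.64 ± 0.0943 FPKM in DMSO, and ABCC10 (MRP7) had 4.59 ± 0.256 FPKM after the combination and 3.08 ± 0.221 FPKM in DMSO. Their log2 fold changes were 0.37 with an SE of 0.0671 (adjusted p = 0.000707) and 0.46 with an SE of 0.0542 (adjusted p = 3.67e-05). ABCC3 (MRP3), which exports glucuronide conjugates, stood lower, at 7.18 ± 0.522 FPKM after the combination, against 9.42 ± 0.366 FPKM in DMSO, a log2 fold change of -0.35 with an SE of 0.0511 (adjusted p = 0.000154). The 4 samples of each of these genes did not overlap between the groups. ABCC5 (MRP5) had 4.19 ± 0.184 FPKM after the combination and 4.35 ± 0.404 FPKM in DMSO and was not called (adjusted p = 0.553). ABCC2 (MRP2), the apical relative known from the bile canaliculus, had 0.804, 0.746, 0.582 and 0.613 FPKM in the 4 combination samples, against 0.396, 0.504, 0.420 and 0.323 FPKM in DMSO. Its groups did not overlap, but it lay under the filter. The fit without the filter gave 0.26 with an SE of 0.0850 (adjusted p = 0.0459), and this call was lost with library totals, TMM factors or quantile scaling (adjusted p = 0.0732, 0.0577 and 0.192), with the replicate number as a block (adjusted p = 0.0975), and without any 1 sample except combination replicate 3 (adjusted p = 0.0509 to 0.113). The other low C members were ABCC6, ABCC8, ABCC9, ABCC11 and ABCC12, with at most 30 reads in any sample. ABCC6, whose reads can be shared with its pseudogenes, had 14 to 30 reads after the combination and 1 to 12 in DMSO, and ABCC9, a regulatory subunit of potassium channels, had 7 to 11 after the combination and 0 to 2 in DMSO. Both were called higher without the filter (adjusted p = 0.0352 and 0.0184), and both calls were lost with quantile scaling (adjusted p = 0.352 and 0.507) and without some single samples, for ABCC6 without combination replicate 1 or 2 or DMSO replicate 1, 3 or 4 (adjusted p = 0.0663 to 0.1) and for ABCC9 without DMSO replicate 1, 2 or 3 (adjusted p = 0.0577 to 0.059). The ABCC6 call was also lost with a filter of 0.1 FPKM (adjusted p = 0.0832) and with a pseudocount of 0.1 (adjusted p = 0.0543), and the ABCC9 call with the replicate number as a block (adjusted p = 0.0748). The channel subunits KCNJ8 and KCNJ11, with which ABCC8 and ABCC9 assemble, were also below the filter, at 0.155 ± 0.0891 FPKM after the combination against 0.0314 ± 0.0244 in DMSO and 0.193 ± 0.0944 FPKM after the combination against 0.0327 ± 0.0306 in DMSO.

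The A and G groups, which hold the sterol and lipid exporters, have 17 members in all. In the fit without the filter 7 of these were called higher and 2 lower, with the pump ABCG2 among the 7. Of all 38736 genes with a read, many of them not protein-coding, 20% were higher and 16.5% lower in that fit. ABCA7, a phospholipid carrier of the plasma membrane on chromosome 19 (positions 1040101 to 1065572), had 4.29, 3.96, 4.33 and 4.18 FPKM in the 4 combination samples, against 1.43, 1.72, 1.71 and 1.83 FPKM in DMSO. All combination samples lay more than 2 FPKM above all DMSO samples. Its log2 fold change of 0.96 with an SE of 0.0591 (adjusted p = 3.19e-07) was the highest among the 23 tested members, and the ratio of FPKM was 2.50. ABCG1, which loads cholesterol onto lipoprotein particles, had 1.37, 1.76, 1.4996 and 1.60 FPKM in the 4 combination samples, against 0.723, 0.502, 0.567 and 0.776 FPKM in DMSO. Its groups did not overlap and its log2 fold change was 0.64 with an SE of 0.0874 (adjusted p = 9.89e-05, and 0.00039 without the filter). ABCA1, which passes cholesterol and phospholipid to apolipoprotein A-I, had 1.37 ± 0.0468 FPKM after the combination and 0.981 ± 0.0737 FPKM in DMSO. Its log2 fold change was 0.26 with an SE of 0.0655 (adjusted p = 0.00493, and 0.00952 without the filter). Both ABCG1 and ABCA1 passed the filter only through the combination samples, so their direction in the fit with the filter was fixed. ABCG4, the brain relative of ABCG1, lay under the filter with 0.387, 0.448, 0.307 and 0.378 FPKM in the 4 combination samples, against 0.110, 0.130, 0.0573 and 0.0404 FPKM in DMSO. Its reads numbered 30 to 48 after the combination and 4 to 13 in DMSO, and without the filter the log2 fold change was 0.35 with an SE of 0.0557 (adjusted p = 0.00114). ABCA2, an endolysosomal lipid carrier, stood slightly lower at 9.72 ± 0.219 FPKM after the combination, against 10.9 ± 0.897 FPKM in DMSO (adjusted p = 0.0301). Its groups overlapped, and the call was lost without the filter (adjusted p = 0.0622), with upper-quartile, nuclear-read or quantile scaling (adjusted p = 0.328, 0.116 and 0.65) and without any of 6 of the 8 samples in turn (adjusted p = 0.0506 to 0.0753), so that it held only without combination replicate 4 or DMSO replicate 2. ABCA5 had 2.37 ± 0.176 FPKM after the combination and 2.25 ± 0.0473 FPKM in DMSO and was not called (adjusted p = 0.419).

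ABCA3 showed the largest proportional increase among members with over 100 reads in every sample of 1 group. This gene, known for packing surfactant lipid in the lung, lies on chromosome 16 (positions 2275881 to 2340746) and had 0.933, 1.49, 1.17 and 1.42 FPKM in the 4 combination samples, against 0.140, 0.0963, 0.0614 and 0.0892 FPKM in DMSO. That is 111 to 199 reads in each combination sample and 8 to 19 in each DMSO sample, with a ratio of FPKM of 12.9. Its mean over all samples lay under the filter, and without it the log2 fold change was 1.03 with an SE of 0.101 (adjusted p = 5.33e-05). The voom fit without the filter, which works on reads without a pseudocount of 1 FPKM, gave 3.64 with an SE of 0.336 (adjusted p = 5.71e-07). ABCA6 moved the other way. This member of a cluster of A genes on chromosome 17 had 0.0278, 0.0289, 0.0454 and 0.0132 FPKM in the 4 combination samples, against 0.618, 0.642, 0.571 and 0.559 FPKM in DMSO. Its reads fell to 3 to 10 in each combination sample, against 125 to 152 in each DMSO sample. Its log2 fold change was -0.63 with an SE of 0.0533 (adjusted p = 2.03e-05) without the filter, and -4.42 with an SE of 0.328 (adjusted p = 5.70e-08) with voom, also without the filter. ABCA13, the longest member, had 0.437, 0.518, 0.579 and 0.458 FPKM in the 4 combination samples, against 1.24, 1.04, 1.23 and 1.01 FPKM in DMSO, without overlap, and its log2 fold change was -0.51 with an SE of 0.0791 (adjusted p = 0.000966) without the filter.

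The 250 bases before the starts of ABCA7, ABCA3 and ABCA6 are shown, as the A members with the strongest changes in each direction, with GC and CCAAT boxes in capitals as above.
ABCA7, chr19:1039857-1040106, plus strand: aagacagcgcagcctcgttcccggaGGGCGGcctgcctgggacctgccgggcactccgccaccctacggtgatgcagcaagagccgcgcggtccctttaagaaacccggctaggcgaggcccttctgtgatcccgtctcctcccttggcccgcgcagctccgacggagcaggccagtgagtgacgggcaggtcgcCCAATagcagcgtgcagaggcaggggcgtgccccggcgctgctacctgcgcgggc
ABCA3, chr16:2340729-2340978, minus strand: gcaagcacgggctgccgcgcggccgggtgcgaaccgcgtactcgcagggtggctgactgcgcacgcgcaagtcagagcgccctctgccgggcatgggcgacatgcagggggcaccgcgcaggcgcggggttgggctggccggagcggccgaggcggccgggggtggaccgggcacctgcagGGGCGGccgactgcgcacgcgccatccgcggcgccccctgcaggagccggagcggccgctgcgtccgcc
ABCA6, chr17:69141896-69142145, minus strand: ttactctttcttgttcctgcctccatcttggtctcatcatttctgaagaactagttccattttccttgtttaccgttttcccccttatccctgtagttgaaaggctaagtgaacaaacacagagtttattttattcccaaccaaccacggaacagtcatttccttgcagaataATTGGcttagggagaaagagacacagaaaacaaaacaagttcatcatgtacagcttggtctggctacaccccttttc
The ABCA7 window held 1 GC box and 1 CCAAT box, the ABCA3 window 1 GC box and 1 antioxidant element core (TGACNNNGC on either strand), and the ABCA6 window 1 CCAAT box. The antioxidant element core occurred in 10.9% of all windows and in 9 of the 53 windows of the 35 members with an entry.

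Genes around sterol handling, a list chosen with results of these data known, numbered 6 higher and 4 lower of 13 tested (median log2 fold change 0.07), a share called close to the 77.8% among all genes tested, of which 36.9% were higher and 41.0% lower. The same shares are the background of the lists that follow. The lysosomal cholesterol exporters NPC1 and NPC2 stood at 21.6 ± 1.08 FPKM after the combination against 6.50 ± 0.223 in DMSO and 66.5 ± 1.35 FPKM after the combination against 37.0 ± 1.71 in DMSO. SCARB1, the HDL receptor, stood at 11.4 ± 0.427 FPKM after the combination against 30.4 ± 0.980 in DMSO. NR1H3 (LXR alpha), a nuclear receptor that drives ABCA1 and ABCG1 in response to oxysterols, stood at 1.86 ± 0.208 FPKM after the combination against 0.996 ± 0.0896 in DMSO (adjusted p = 0.000164); its DMSO mean lay under 1 FPKM, so it too passed the filter only through the combination samples and had to stand higher. NR1H2 (LXR beta) stood at 17.6 ± 0.410 FPKM after the combination against 16.7 ± 0.544 in DMSO and was not called (adjusted p = 0.0832). Their partner RXRA stood at 4.38 ± 0.126 FPKM after the combination against 7.32 ± 0.512 in DMSO, a decrease that was called (adjusted p = 2.09e-06).

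Members known from mitochondria went in both directions. ABCB10, which supports heme synthesis, lies on chromosome 1 (positions 229516582 to 229558695) and had 3.70, 3.75, 3.56 and 3.26 FPKM in the 4 combination samples, against 8.34, 8.20, 7.98 and 9.11 FPKM in DMSO. All 4 combination samples lay below all 4 DMSO samples by more than 4 FPKM. The log2 fold change of -1.04 with an SE of 0.0521 (adjusted p = 7.24e-08) was the lowest of the tested members, with a ratio of FPKM of 0.424. It stayed called but short of 2-fold on that scale with upper-quartile, nuclear-read or quantile scaling (-0.96, -0.99 and -0.93) and with a pseudocount of 5 (-0.65). ABCB8, a carrier linked to mitochondrial iron export, had 10.2, 10.6, 10.8 and 10.7 FPKM in the 4 combination samples, against 6.23, 6.55, 6.24 and 6.56 FPKM in DMSO. It rose by a log2 fold change of 0.65 with an SE of 0.0339 (adjusted p = 9.84e-08), without overlap of the groups. ABCB6, a porphyrin carrier, had 1.14 ± 0.316 FPKM after the combination and 1.27 ± 0.157 FPKM in DMSO and was not called (adjusted p = 0.457). Exons of another annotated gene on the same strand cover 54.7% of its exon length, so its value is less certain. ABCB9, a peptide carrier of lysosomes, fell to 2.02 ± 0.0372 FPKM after the combination, against 2.72 ± 0.110 FPKM in DMSO, with a log2 fold change of -0.30 with an SE of 0.0471 (adjusted p = 0.000263), and 24.5% of its exon length lies under exons on the opposite strand.

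The window before the start of ABCB10, the only called member that fell 2-fold in the fit with the filter, held 4 GC boxes, shown in capitals, 2 of them adjoining.
ABCB10, chr1:229558708-229558957, minus strand: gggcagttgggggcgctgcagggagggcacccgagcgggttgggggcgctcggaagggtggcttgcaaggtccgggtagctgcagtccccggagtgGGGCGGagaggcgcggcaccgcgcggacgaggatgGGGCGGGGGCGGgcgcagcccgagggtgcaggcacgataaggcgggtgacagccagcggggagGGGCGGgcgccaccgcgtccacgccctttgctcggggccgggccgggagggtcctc
It held no CCAAT box. Of the members with an entry, 21 of 35 had a GC box in at least 1 window.

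Around heme and iron-sulfur synthesis, 9 genes were higher and 5 lower of 15 tested (median log2 fold change 0.28), where 36.9% and 41.0% of all genes tested were. ALAS1, the first enzyme of heme synthesis, stood at 48.0 ± 1.01 FPKM after the combination against 21.6 ± 0.701 in DMSO, and CPOX, which acts later in the pathway, at 26.0 ± 0.653 FPKM after the combination against 14.1 ± 0.917 in DMSO. UROD stood at 15.1 ± 1.22 FPKM after the combination against 24.6 ± 0.536 in DMSO, and FECH, which inserts the iron and is known to form a complex with ABCB10 and mitoferrin-1 in mouse cells, at 4.72 ± 0.446 FPKM after the combination against 7.12 ± 0.519 in DMSO. The mitoferrin-1 gene SLC25A37 stood at 19.9 ± 0.925 FPKM after the combination against 15.1 ± 0.459 in DMSO and that of mitoferrin-2, SLC25A28, at 10.1 ± 1.001 FPKM after the combination against 17.8 ± 1.76 in DMSO. All 6 of these genes were called.

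ABCD2, a peroxisomal fatty acid importer, had 0.263, 0.384, 0.381 and 0.320 FPKM in the 4 combination samples, against 0.0461, 0.0402, 0.0672 and 0.102 FPKM in DMSO. That is 25 to 41 reads per combination sample and 4 to 10 per DMSO sample, and without the filter the log2 fold change was 0.33 with an SE of 0.0497 (adjusted p = 0.000797). Its groups did not overlap. ABCD3, which imports branched-chain acids into peroxisomes, had 10.8 ± 0.288 FPKM after the combination and 10.3 ± 0.180 FPKM in DMSO (adjusted p = 0.097), and it was called higher with upper-quartile, nuclear-read or quantile scaling (adjusted p = 0.003, 0.00553 and 0.000387). Genes of peroxisome import and fatty acid oxidation split into 7 higher and 6 lower of 15 tested, such as HSD17B4 (23.3 ± 0.821 FPKM after the combination against 13.6 ± 0.454 in DMSO) and PEX5 (10.3 ± 0.538 FPKM after the combination against 6.21 ± 0.292 in DMSO) among the higher, and SCP2 (4.92 ± 0.276 FPKM after the combination against 8.51 ± 0.537 in DMSO) and PEX14 (5.61 ± 0.366 FPKM after the combination against 8.48 ± 0.219 in DMSO) among the lower.

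ABCD4 is a D member of lysosomes, where it works with LMBRD1 to release cobalamin. It fell to 2.56 ± 0.156 FPKM after the combination, against 3.58 ± 0.182 FPKM in DMSO, with a log2 fold change of -0.36 with an SE of 0.0517 (adjusted p = 0.000129) and no overlap. LMBRD1 stood at 7.14 ± 0.284 FPKM after the combination against 4.56 ± 0.0928 in DMSO and was called higher. Of the 7 tested genes of cobalamin handling, 3 were higher and 2 lower, namely MTR (4.85 ± 0.254 FPKM after the combination against 7.73 ± 0.417 in DMSO), which encodes methionine synthase, and MMAB (1.05 ± 0.174 FPKM after the combination against 2.19 ± 0.215 in DMSO).

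The soluble E and F members differed little between the groups. ABCF1, which promotes translation initiation, was the most abundant member per length in both groups, with 27.8, 28.8, 29.2 and 30.4 FPKM in the 4 combination samples, against 30.3, 27.5, 29.01 and 31.0 FPKM in DMSO. The groups overlapped and it was not called, at a log2 fold change of -0.02 with an SE of 0.0435 (adjusted p = 0.717). ABCE1, which splits ribosomes after termination, had 14.7, 15.8, 15.2 and 15.1 FPKM in the 4 combination samples, against 13.99, 14.8, 14.5 and 13.4 FPKM in DMSO. Its groups overlapped as well, and its log2 fold change was 0.09 with an SE of 0.0374 (adjusted p = 0.0442). That call was lost without the filter or with a filter of 0.1 FPKM (adjusted p = 0.068 and 0.0523), and with library totals, TMM factors or voom (adjusted p = 0.534, 0.192 and 0.199). It was also lost without any of 6 of the 8 samples in turn (adjusted p = 0.0561 to 0.111). Among these omissions it held only without combination replicate 1 or DMSO replicate 2. ABCE1 stayed called higher with upper-quartile, nuclear-read or quantile scaling (log2 fold change 0.18, 0.15 and 0.21, adjusted p = 0.00163, 0.00811 and 0.0011). ABCF3, another soluble member, had 12.7 ± 0.656 FPKM after the combination and 11.1 ± 0.695 FPKM in DMSO (adjusted p = 0.0101, 0.0722 with library totals). ABCF2 had 6.57 ± 0.257 FPKM after the combination and 6.93 ± 0.439 FPKM in DMSO (adjusted p = 0.234), with 45.8% of its exon length under another gene on the same strand. Of 16 genes of ribosome recycling and translation control, 7 were higher and 3 lower. PELO, the ribosome rescue factor that works with ABCE1, stood at 23.4 ± 1.66 FPKM after the combination against 10.01 ± 0.0764 in DMSO, MCTS1 at 17.9 ± 0.0811 FPKM after the combination against 11.4 ± 0.453 in DMSO and EIF2S2, a subunit of initiation factor eIF2, at 44.2 ± 2.65 FPKM after the combination against 64.9 ± 1.02 in DMSO.

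Of the 22 members under the filter, 9 were higher and 3 lower in the fit without it, and 10 were not called. Among all 25440 genes with a read that averaged under 1 FPKM, many of them not protein-coding, 12.3% were higher and 4.71% lower in the same fit. Besides those described, ABCB4, which moves phosphatidylcholine into bile, had 0.509, 0.568, 0.449 and 0.533 FPKM in the 4 combination samples, against 1.08, 0.957, 0.860 and 0.942 FPKM in DMSO. Its groups did not overlap, and the log2 fold change was -0.37 with an SE of 0.0760 (adjusted p = 0.00466). ABCB5 and ABCA4, the retinoid carrier of photoreceptors, had 9 to 25 and 9 to 20 reads per combination sample, against 0 to 3 and 0 to 2 per DMSO sample. Both were called higher without the filter (adjusted p = 0.00709 and 0.00371), but not when quantile scaling was added (adjusted p = 0.0667 and 0.0856). ABCA8 had 0 to 2 reads per combination sample and 3 to 13 per DMSO sample and was not called (adjusted p = 0.071), though its groups did not overlap. It was called lower by voom (adjusted p = 0.00187), with quantile scaling (adjusted p = 0.00281) and without DMSO replicate 4 (adjusted p = 0.0417). For ABCB11, ABCC8, ABCC11, ABCC12, ABCG5 and ABCG8 no sample held more than 10 reads, and none was called in the fit without the filter. ABCG5 was called higher by voom without the filter (log2 fold change 2.41, adjusted p = 0.0171), on 2 to 9 reads per combination sample and 0 to 4 per DMSO sample, and ABCC8 and ABCB11 were called lower with quantile scaling (adjusted p = 0.023 and 0.0404). ABCA9, ABCA10 and ABCA12 overlapped between the groups and were not called, though ABCA9 was called lower with quantile scaling (adjusted p = 0.0206).

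**Figure D2:**
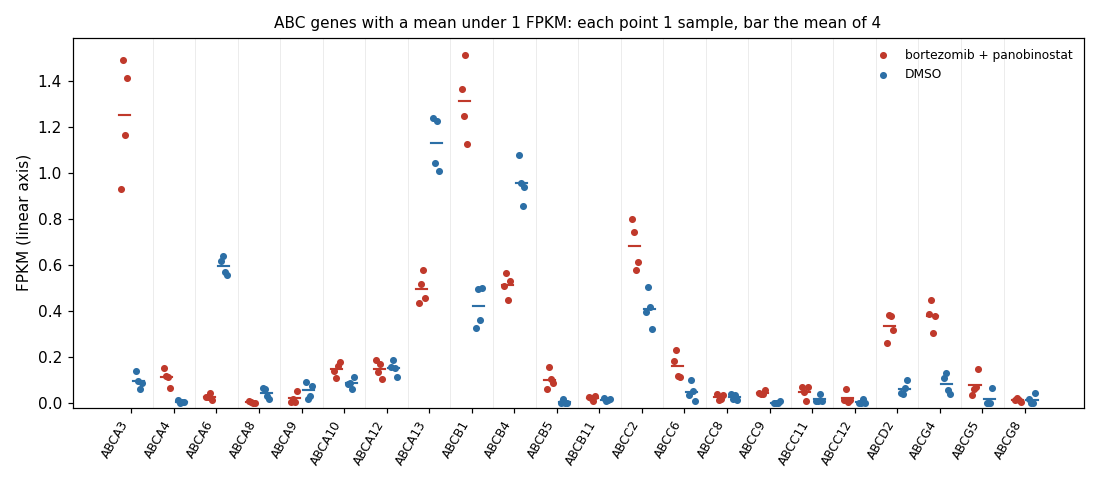
FPKM on a linear axis for the 22 ABC genes with a mean under 1 FPKM, 1 point per sample and a bar at the mean of 4 samples, with the bortezomib plus panobinostat samples in red left of the DMSO samples in blue. ABCA3 and ABCB1 reach over 0.9 FPKM in every combination sample, while ABCA6, ABCA13 and ABCB4 are lower there than in every DMSO sample.

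Several members are neighbours in the genome, and these did not always move alike. ABCB4 and ABCB1 lie on the same strand of chromosome 7, 23197 bases apart. The log2 ratio of ABCB4 to ABCB1, each as FPKM + 1, was -0.61 ± 0.144 after the combination and 0.46 ± 0.127 in DMSO (two-sided exact permutation test, p = 0.0286, adjusted p = 0.0571). Thus ABCB4 stood below ABCB1 in each combination sample and above it in each DMSO sample. On chromosome 17, ABCA8, ABCA9, ABCA6, ABCA10 and ABCA5 follow each other on the minus strand. The log2 ratio of ABCA6 to ABCA10 was -0.16 ± 0.0442 after the combination and 0.56 ± 0.0474 in DMSO, with the same exact permutation p, while that of ABCA10 to ABCA5 was -1.55 ± 0.107 after the combination and -1.58 ± 0.0451 in DMSO (exact p = 0.657, adjusted p = 0.73). ABCA10 averaged only 0.148 FPKM after the combination and 0.0872 FPKM in DMSO. With 1 FPKM added, a change in ABCA10 could move this ratio little, so it does not show that the pair moved alike. Without the added 1, the ratio of mean FPKM, combination over DMSO, was 1.69 for ABCA10 and 1.05 for ABCA5. In all, 10 pairs with at most 200000 bases between them were compared after their values had been seen. The difference reached the smallest possible p of 0.0286 in 5 pairs, and no pair passed after adjustment over the 10 (lowest adjusted p = 0.0571), since 4 samples against 4 allow no smaller raw p.

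Summed over its members, the level of the whole family was 172 ± 0.850 FPKM after the combination and 163 ± 3.97 FPKM in DMSO. The difference was small. On the deposited FPKM scale every combination sample (171.0 to 172.5 FPKM) lay above every DMSO sample (159.7 to 168.9 FPKM). The number the authors divided by, relative to the assigned reads, was lower in every combination sample than in every DMSO sample. This raises FPKM after the combination relative to DMSO. Whether the separation of the family sums holds on another scale was not tested. The G group stood out in proportion, at 3.90 ± 0.150 FPKM after the combination and 1.66 ± 0.208 FPKM in DMSO, which was 2.27% ± 0.0942 of the family total after the combination and 1.02% ± 0.118 in DMSO. Most of the G sum lay in ABCG2 (1.87 FPKM after the combination, 0.904 in DMSO) and ABCG1 (1.56 after the combination, 0.642 in DMSO). The C group summed to 34.3 ± 1.46 FPKM after the combination and 29.3 ± 0.566 FPKM in DMSO. Most of that difference lay in ABCC1 (15.0 FPKM after the combination, 10.3 in DMSO). Of the 5 tested C members 3 were called higher and 1, ABCC3, lower (7.18 FPKM after the combination, 9.42 in DMSO). The F group held the largest share, 28.1% ± 0.397 of the family total after the combination and 29.03% ± 0.701 in DMSO. These sums are descriptions and were not tested.

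**Figure D3:**
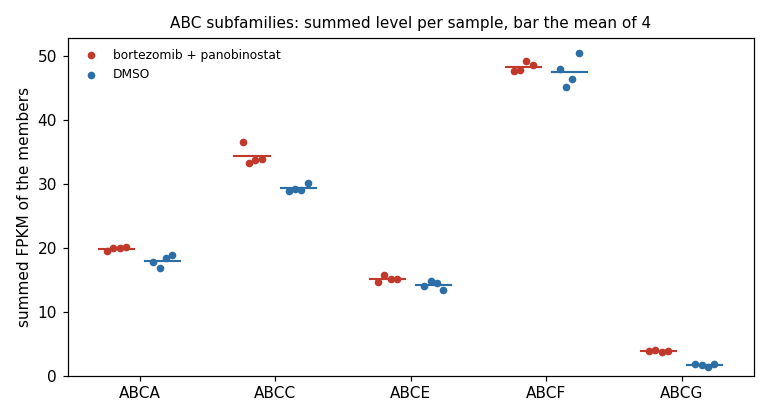
Summed FPKM of the members of the A, C, E, F and G groups per sample, 1 point per sample and a bar at the mean of 4 samples, with the bortezomib plus panobinostat samples in red left of the DMSO samples in blue. On the deposited FPKM scale the A, C and G groups are higher after the combination, without overlap of the samples. The sums were not repeated with another scale.

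The ABC proteins named otherwise were measured for comparison. TAP1 and TAP2, the peptide carriers of antigen presentation that belong to the B group, both fell, to 11.2 ± 0.811 and 3.14 ± 0.277 FPKM after the combination, against 40.2 ± 7.10 and 6.12 ± 0.517 FPKM in DMSO. CFTR averaged 0.0163 FPKM after the combination and 0.00339 FPKM in DMSO and was not tested. Other genes of drug handling moved both ways. Of 10 tested xenobiotic sensors and enzymes, 7 were higher and 3 lower (median 0.54), with the oxidase CYP1A1 at 16.7 ± 1.73 FPKM after the combination against 1.29 ± 0.141 in DMSO, its receptor AHR at 19.6 ± 1.15 FPKM after the combination against 10.6 ± 0.508 in DMSO, the repressor AHRR at 5.51 ± 0.286 FPKM after the combination against 13.3 ± 0.767 in DMSO and MVP, the major vault protein, at 49.6 ± 1.75 FPKM after the combination against 24.0 ± 1.82 in DMSO. NR1I2 (PXR), a known activator of ABCB1 in liver, averaged 0.0146 FPKM after the combination and 0.00267 FPKM in DMSO and was not tested. Of 9 tested drug carriers of the solute carrier families, 3 were higher and 5 lower, with the organic cation carrier SLC22A4 at 6.55 ± 0.709 FPKM after the combination against 2.70 ± 0.264 in DMSO, the nucleoside carrier SLC29A2 at 4.78 ± 0.572 FPKM after the combination against 1.93 ± 0.166 in DMSO, the organic anion carrier SLCO4A1 at 1.44 ± 0.192 FPKM after the combination against 7.09 ± 0.552 in DMSO and the copper carrier SLC31A1 at 7.48 ± 0.189 FPKM after the combination against 10.9 ± 0.489 in DMSO. Of 12 sphingolipid genes, 4 were higher and 7 lower, with the glucosylceramide synthase UGCG at 39.2 ± 1.43 FPKM after the combination against 6.79 ± 0.435 in DMSO and the receptor S1PR2 at 1.91 ± 0.280 FPKM after the combination against 8.08 ± 0.226 in DMSO.

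**Figure D4:**
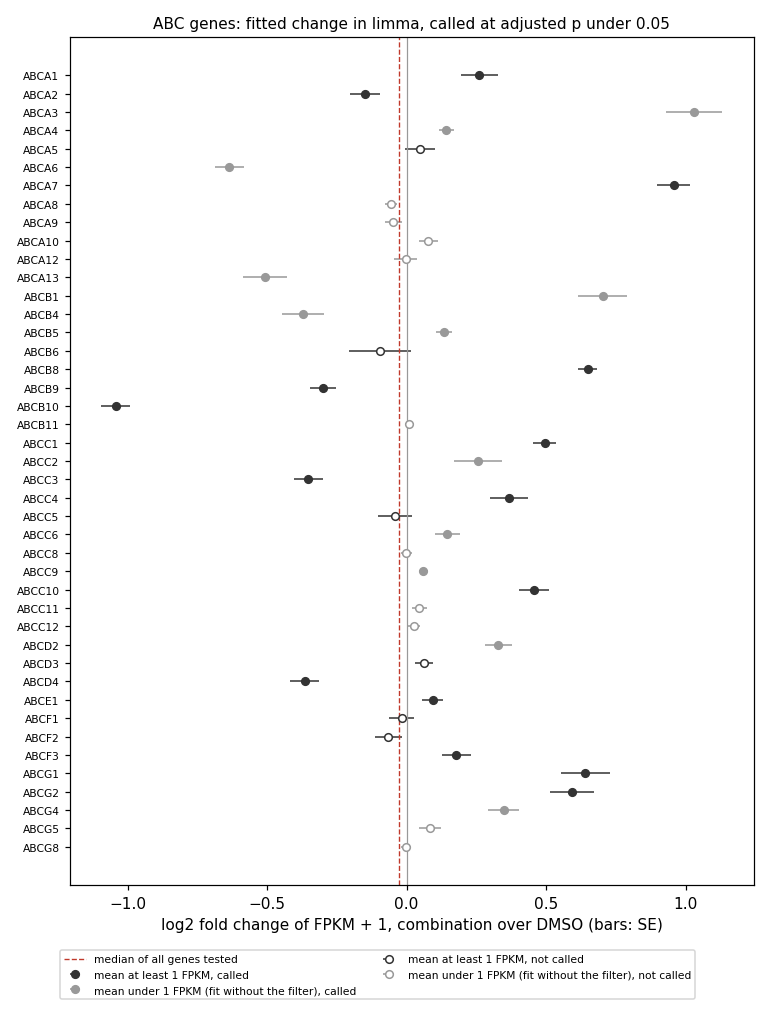
Fitted log2 fold change of FPKM + 1, combination over DMSO, for 43 ABC genes, with bars of 1 SE. Black points come from the fit over genes averaging 1 FPKM or more and grey points from the fit without that filter, filled points are called and open points are not, and the dashed red line at -0.03 marks the median of all genes tested. ABCA3 (1.03), ABCA7 (0.96), ABCB1 (0.70) and ABCB8 (0.65) lie farthest right and ABCB10 (-1.04), ABCA6 (-0.63) and ABCA13 (-0.51) farthest left.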

How the data were processed

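RNA of 8 LN229 samples was sequenced, and the authors deposited FPKM values per gene, per the file headers. Bowtie 0.12.2, mm8 and GRCh37 appear in the submitters' processing notes with no role. All 58735 gene identifiers, coordinates and lengths of the table equal those of GENCODE 29 (GRCh38), so coordinates are GRCh38; the read counter and its strand setting are not given in the sources used here. Multiplying FPKM by gene length gave multiples of a single read (100% of nonzero values within 0.02). A count of 3 reads on a gene of 1 kb stands at 0.173 to 0.197 FPKM, a floor that covers counting error only. The number the authors divided by was 0.954 to 1.00 times the assigned reads in combination samples and 1.03 to 1.04 times in DMSO.

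Groups follow the sample titles. The test was limma 3.58.1 in R 4.3.3 on log2(FPKM + 1), with a mean-variance trend, group as the only term, and all genes averaging 1 FPKM or more; it was tested on simulated reads. Members under that filter were fitted without it. Values per sample are given for members called with at least a 2-fold change, ABCB1, ABCC1, ABCG2, ABCE1, the 3 most abundant members, and members under the filter whose groups stand apart with a mean of at least 0.5 FPKM in the higher group; ABCA7, ABCB8, ABCD2, ABCG1 and ABCG4 were added after their values were seen. From the other lists, genes of smallest p in each direction are named, and NR1H2, NR1H3, AHR, NR1I2, FECH, SLC25A37, KCNJ8 and KCNJ11 for their known roles. Some members enter the counts but are not reported here by name. Members and lists were chosen with earlier results of these data known. Exon overlaps come from GENCODE 29 and promoter windows from RefSeq (GRCh38.p14; 35 of 45 members matched); motifs were searched on both strands. Alternatives were other pseudocounts, filters and scalings, voom of limma, a block for replicate number, and omission of each sample. Figures were drawn with matplotlib 3.10.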

Additional observations from a re-analysis of the deposited data

Results flagged for a closer look

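Among 86 groups of 4 samples, 1 sample stood far from the other 3 in 7 groups. Chance flags about 1 in 20 groups of continuous values, a rate that does not hold for the 4 of these groups in which the other 3 samples had no read. ABCA5 was high in DMSO replicate 3, at 2.32 FPKM with the others between 2.22 and 2.23 FPKM. ABCB5 stood at 0.0203 FPKM in DMSO replicate 2 and had no read in the other 3 samples of that group. ABCC9 stood at 0.0109 FPKM in DMSO replicate 4 and had no read in the other 3 samples of that group. ABCC11 was high in DMSO replicate 3, at 0.0413 FPKM with the others between 0.00794 and 0.00874 FPKM. ABCC12 was high in combination replicate 2, at 0.0605 FPKM with the others between 0.00738 and 0.0151 FPKM. ABCC12 stood at 0.0207 FPKM in DMSO replicate 3 and had no read in the other 3 samples of that group. ABCG5 stood at 0.0681 FPKM in DMSO replicate 4 and had no read in the other 3 samples of that group.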

How the results depend on the processing

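Of 867 comparisons of a single member with an alternative, 807 kept direction and side of the threshold, and of the 23 tested members 17 did so under every alternative. The exceptions included ABCA2, ABCD3, ABCE1 and ABCF3, given above, and ABCF2, which was called lower with library totals (adjusted p = 0.0325). Members called higher numbered 11, from 8 with library totals to 12 with upper-quartile, nuclear-read or quantile scaling, 15 with a filter of 0.1 FPKM, and 19 without the filter by limma or voom. Members called lower numbered 6, from 5 to 7 under other scalings, 9 with a filter of 0.1 FPKM, 8 with none, and 10 with voom without the filter. Without the filter and with another scaling, 16 to 21 were higher and 8 to 12 lower, the 12 with quantile scaling. These combinations without the filter were chosen after seeing the data. Leaving out each sample gave 10 to 11 higher and 5 to 6 lower, and without the filter 15 to 18 higher and 8 to 9 lower. Without the filter, quantile scaling turned ABCB11, with at most 4 reads in any sample, to -0.046 (adjusted p = 0.0404) against 0.0093. With a pseudocount of 0.1 the difference in the ratio of ABCC1 to its neighbour ABCC6 turned to -0.28 (exact permutation p = 0.343), against 0.35. The direction with 0.1 is also that of the means without a pseudocount. The ratio of mean FPKM, combination over DMSO, was 3.22 for ABCC6 and 1.45 for ABCC1. The cause was not tested in either case. Leaving out each sample gave a difference of 7.58 to 8.71 percentage points in the mitochondrial read share, against 8.09, with 0.0571 the smallest exact p possible. For the other lists, upper-quartile and quantile scaling gave 11 higher ribosome recycling genes each (7 otherwise) and 2 lower sterol genes each (4 otherwise), upper-quartile scaling 3 lower solute carriers (5 otherwise), library totals 5 lower ribosome recycling genes (3 otherwise), and no filter or a filter of 0.1 FPKM gave 5 higher cobalamin genes (3 otherwise) and 1 higher potassium channel gene. Same-numbered samples did not visibly deviate together (correlations from -0.02 to 0.07, within the -0.0971 to 0.0790 of the other pairs). With only 4 such pairs this cannot exclude a pairing by replicate number. With the replicate number as a block 11 members were higher and 6 lower, as without it. Without the filter the block gave 16 higher and 9 lower. Depth limits the 6 members with at most 10 reads in every sample.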
